A study of Homo sapiens with 16 samples.

Results

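The genes described here make cholesterol and fatty acids, and they are known for their shared control by the sterol regulatory element binding proteins, or SREBPs. They were picked by name, and they number 31 of the 60448 gene identifiers in the table. By role they fall into 7 genes of the mevalonate arm (ACAT2, HMGCS1, MVK, PMVK, MVD, IDI1 and FDPS), 12 of the sterol arm (FDFT1, SQLE, LSS, CYP51A1, TM7SF2, LBR, MSMO1, NSDHL, HSD17B7, EBP, SC5D and DHCR7), 5 regulators and carriers (SREBF1, SREBF2, SCAP, INSIG1 and STARD4) and 7 of the fatty acid arm (ACLY, ACACA, FASN, SCD, FADS1, FADS2 and ELOVL6). All 31 were found, and all 31 passed the filter on low values, set at a mean of 0.5 FPKM over the 16 libraries. FPKM counts fragments per exon length and per library total, so it is a relative level.

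RNA was measured in A549, an established line of human lung adenocarcinoma cells, and in A549/cDDP, its cisplatin-resistant derivative, to see how each responds to the drug and what loss of the long non-coding RNA SCAT7 does in the resistant line. The 8 groups held 2 libraries each. A549/cDDP cells received a gapmer against SCAT7, a control gapmer or no transfection, each in cisplatin or in solvent, and A549 cells received no transfection, in cisplatin or in solvent. Gapmers are short antisense DNA strands with modified ends that lead RNase H to cut a matching RNA. Cisplatin, a platinum drug that crosslinks DNA, was labelled 15 mM and given for 24 h, a unit printed as labelled and not checked here. Routine medium of A549/cDDP carried cisplatin at the same labelled concentration, so the lines differed in drug history also in the solvent groups. Transfected wells received 12 pmol of gapmer and were collected 48 h later, so they also differed from untransfected wells in lipid reagent and perhaps in handling. The titles name the knockdown only as L2, which is taken here as SCAT7 because the series' design text names no other target. Whether the 2 libraries of a group are separate cultures is not stated in the labels. The p-values therefore rest on the spread between these libraries alone, which may be technical.

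In outline, SREBP precursors sit in the membrane of the endoplasmic reticulum with SCAP, and INSIG1 holds the complex there while sterols are plentiful. When sterols run low, SCAP carries the precursor to the Golgi, proteases release its transcription factor part, and this part enters the nucleus and acts at promoters together with NF-Y and Sp1. SREBF2 encodes the form tied mostly to cholesterol genes, and SREBF1 the forms tied mostly to fatty acid genes. Alveolar type II cells of the lung, which A549 is often used to model, make large amounts of surfactant lipid.

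Promoters of 5 genes are shown because these had the largest differences between A549/cDDP and A549 in cisplatin, the comparison with the most genes past the test, among genes with a promoter entry. The bases are from RefSeq (GRCh38.p14), read 5′ to 3′ on the gene's strand from 250 bases before the start site. They stop before the outermost annotated start of the gene itself, and transcripts of other genes were not checked. Capitals mark the NF-Y box, CCAAT, or its reverse complement, ATTGG. The stretches lie at chr4:165327419-165327622 (plus strand), chr7:155297628-155297775 (plus strand), chr21:46228825-46229024 (minus strand), chr11:65111622-65111844 (plus strand) and chr5:111512591-111512785 (minus strand).
MSMO1: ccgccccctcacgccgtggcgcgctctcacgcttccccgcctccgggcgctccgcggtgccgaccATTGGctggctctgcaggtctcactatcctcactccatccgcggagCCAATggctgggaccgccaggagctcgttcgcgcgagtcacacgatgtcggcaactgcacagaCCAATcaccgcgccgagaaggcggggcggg
INSIG1: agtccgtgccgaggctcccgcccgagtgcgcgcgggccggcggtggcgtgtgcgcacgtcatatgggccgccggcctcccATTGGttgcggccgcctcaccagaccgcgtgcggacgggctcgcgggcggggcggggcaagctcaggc
LSS: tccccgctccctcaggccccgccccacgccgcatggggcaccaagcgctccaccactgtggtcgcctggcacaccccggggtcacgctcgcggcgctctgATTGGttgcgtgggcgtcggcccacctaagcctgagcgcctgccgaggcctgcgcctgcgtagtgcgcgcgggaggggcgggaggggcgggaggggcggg
TM7SF2: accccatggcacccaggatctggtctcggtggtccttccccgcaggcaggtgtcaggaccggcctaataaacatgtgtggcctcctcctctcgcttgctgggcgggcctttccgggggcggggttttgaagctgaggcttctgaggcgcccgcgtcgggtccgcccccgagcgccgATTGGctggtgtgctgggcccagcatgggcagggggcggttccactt
STARD4: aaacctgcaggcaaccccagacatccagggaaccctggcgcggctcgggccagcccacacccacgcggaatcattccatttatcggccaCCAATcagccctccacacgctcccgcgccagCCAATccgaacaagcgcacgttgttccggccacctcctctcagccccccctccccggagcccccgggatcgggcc
The MSMO1 stretch held 3 NF-Y boxes, that of STARD4 held 2, and those of INSIG1, LSS and TM7SF2 held 1 each. Over the whole window of 300 bases (250 before and 50 after the start), 27 of the 31 genes had an entry. CCAAT occurred on either strand in 20 of them (74.1%), against 42.1% of the 15843 protein-coding genes with a full window. A gene with several windows counted if any of them matched. The Sp1 box GGGCGG occurred in 25 (92.6%), against 64.3% of those protein-coding genes. The SREBP element TCACNCCAC occurred in 1, SREBF2 (3.7%), against 1.51% of them, and the E-box CACGTG in 4 (14.8%), against 10.9%. CACGTG reads the same on both strands, and each motif was searched on its own, so matches may overlap. A match is only a run of letters, and the absence of one in this window says nothing of binding.

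Depth, read from the steps of low FPKM values, lay between 31350000 and 43140000 fragments per library, and the SCAT7 gapmer libraries (31350000 to 33400000) were all shallower than the control gapmer libraries (42300000 to 43140000). ELF3-AS1, the gene known as SCAT7, had 0.594 and 0.837 FPKM with the SCAT7 gapmer in solvent, against 2.56 and 3.57 FPKM with the control gapmer (limma adjusted p = 7.5e-06). In cisplatin it had 1.69 and 2.18 FPKM, against 3.73 and 3.23 FPKM (limma adjusted p = 0.00355), so the target was lower in both. Of 6 epithelial markers all were expressed, EPCAM weakly at 0.584 to 3.81 FPKM. Their summed level, mostly KRT7, KRT8 and KRT18, was 5276 to 5707 FPKM in untransfected A549/cDDP, against 6750 to 8429 FPKM in A549. In solvent 5 were lower in A549/cDDP and 1 was higher. CDH1 averaged 2.92 FPKM there, against 14.5 FPKM in A549, and KRT19, the higher one, 164 FPKM, against 90.8 FPKM. Of 5 lung markers, 3 stayed under 0.2 FPKM and NKX2-1 was listed at 0 in all A549 libraries. Of 11 markers of other lineages, COL1A1 (7.2 to 52.7 FPKM) and PLIN1 (up to 1.66 FPKM, in SCAT7 gapmer libraries) passed 1 FPKM.

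Across the groups, 11 of the 31 genes had their highest mean in untransfected A549/cDDP with cisplatin and 7 in the same line in solvent, while 13 had their lowest mean in A549 with cisplatin. The same was not counted over all genes, so these numbers are not shown to be particular to the set. ACLY, which makes cytosolic acetyl-CoA from citrate, was among the most abundant, with a lowest library of 329, a median of 379 and a highest of 541 FPKM. FADS1, a fatty acid desaturase, ranged between 230 and 504 FPKM. CYP51A1, the lanosterol demethylase, was the least abundant at 1.41 to 3.02 FPKM, its groups overlapped for all 7 neighbouring pairs in order of level, and it passed the test in none of the comparisons. In GENCODE 29, 83.2% of its exon bases are shared with other genes, so its reads could be lost in counting. The widest spread between group means was that of TM7SF2, 7.52 times, followed by LBR at 5 times and STARD4 at 4.93 times.

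**Figure D1:**
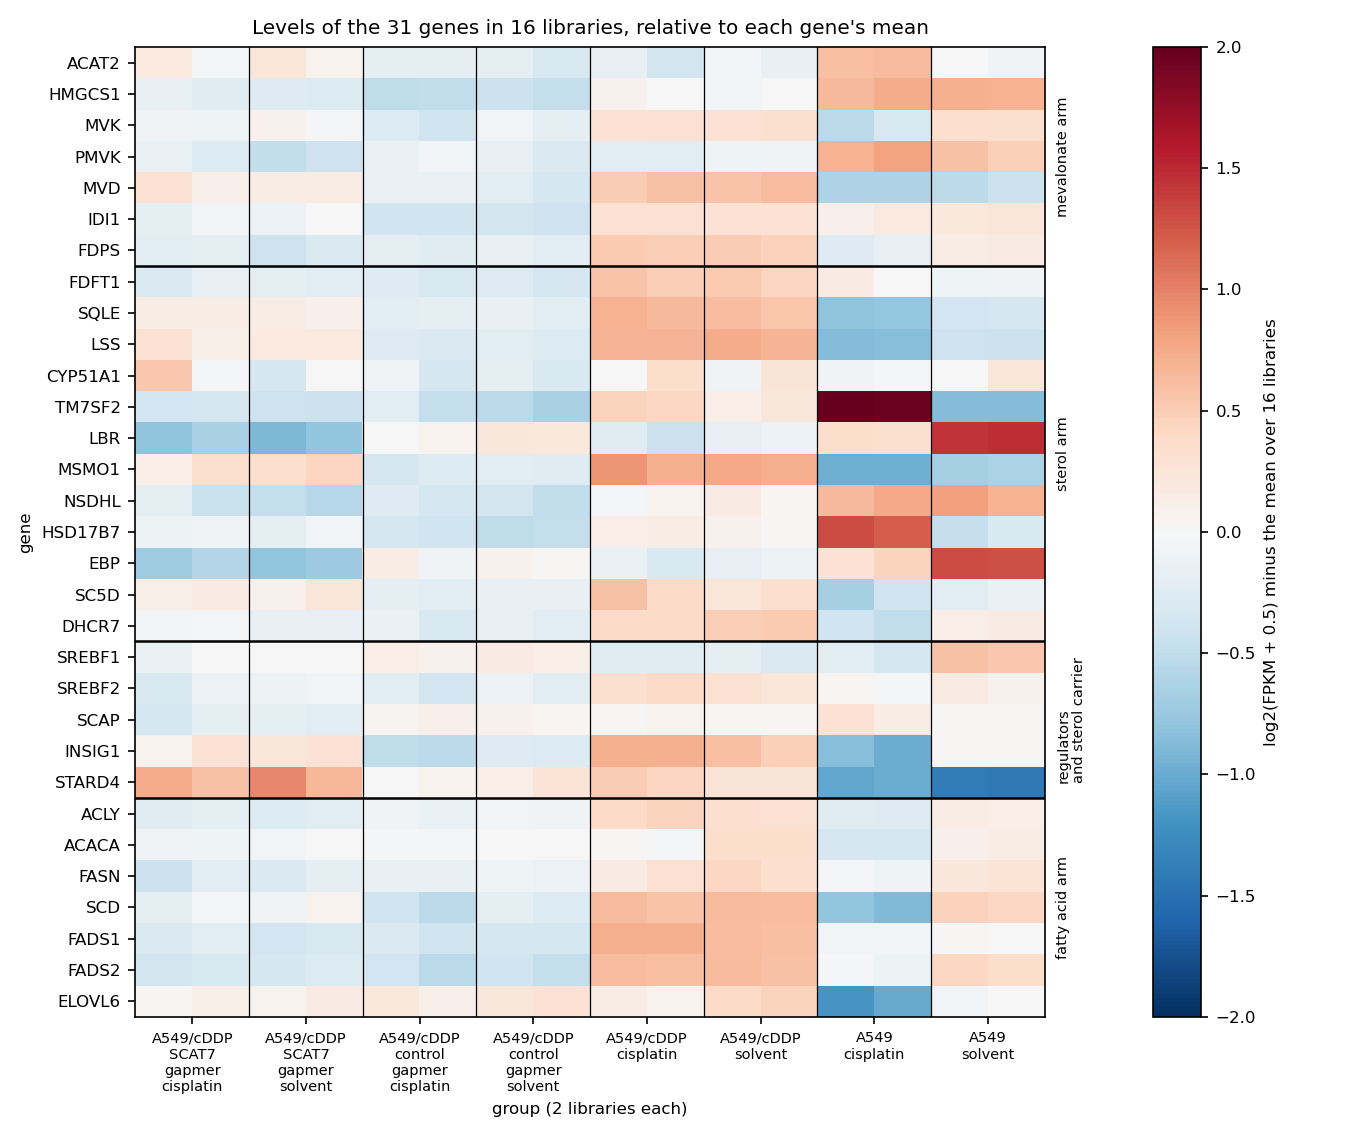
Level of each of the 31 genes (rows, in order of pathway role) in each of the 16 libraries (columns, 2 per group), as log2(FPKM + 0.5) minus the gene's mean over all libraries. Red is above the gene's mean and blue below it. TM7SF2 and HSD17B7 are reddest in A549 with cisplatin, and LBR and EBP are reddest in A549 in solvent.

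Cisplatin in A549 split the pathway. Most genes of fatty acid synthesis and of the sterol arm fell, while TM7SF2 and HSD17B7, enzymes of the late sterol steps, rose 7.52-fold and 3.22-fold. Of the 31 genes, 17 were lower and 7 higher (limma on log2(FPKM + 0.5), adjusted p under 0.05 over all 17198 genes tested), beside 27.1% of all genes called lower and 33.3% called higher (60.4% in either direction). The median log2 difference of the 31 genes was -0.33, against 0.06 over all genes. Scaling the libraries by median ratios, which moved that median of all genes to 0.00, gave 21 lower and 4 higher. The shares of all genes above are from the main fit, and those with this scaling are not given. In bulk RNA, fewer cells of a type and less RNA per cell cannot be told apart. Of the 6 epithelial markers 1 was higher and 4 were lower, with a sum of 6750 to 6849 FPKM in cisplatin, against 8414 to 8429 FPKM in solvent, and their part in the result was not tested.

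TM7SF2 and LBR encode the enzymes that carry out the same reduction of the sterol ring after demethylation, and LBR is also a protein of the nuclear envelope that anchors chromatin. TM7SF2 had 72.4 and 71 FPKM in the cisplatin libraries of A549, against 9.51 and 9.56 FPKM in its solvent libraries (log2 difference 2.85, SE 0.07, limma adjusted p = 9.55e-12). By the size of the rise it was rank 116 of 17198 genes. LBR had 50.4 and 49.1 FPKM in cisplatin, against 107 and 110 FPKM in solvent (log2 difference -1.12, SE 0.07, limma adjusted p = 1.79e-08). The libraries of both groups stood apart for each gene, and in opposite directions. Their summed level was 123 and 120 FPKM in cisplatin, against 117 and 119 FPKM in solvent, so that TM7SF2 made up 58.9% and 59.1% of the sum in cisplatin, against 8.14% and 8.02% in solvent.

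HSD17B7, a ketosteroid reductase of the demethylation of the sterol ring, had 38.3 and 35.9 FPKM in cisplatin, against 10.9 and 12.2 FPKM in solvent (log2 difference 1.64, 95% interval 1.51 to 1.78, limma adjusted p = 2.13e-10). Its annotation has 2 pseudogenes of the same name, so some of its reads could be shared with them. EBP, the sterol isomerase of the next steps, went the other way, with 29.8 and 33.1 FPKM in cisplatin, against 60.4 and 60.2 FPKM in solvent (log2 difference -0.93, SE 0.08, limma adjusted p = 5.18e-07). DHCR7, which carries out a last reduction to cholesterol, had 43.6 and 40.8 FPKM, against 63.7 and 64.7 FPKM in solvent (log2 difference -0.60, limma adjusted p = 7.39e-07). Of the 12 sterol genes, 7 fell and 3 rose; SQLE, LSS, MSMO1 and SC5D made up the rest of the falls, with log2 differences of -0.43, -0.44, -0.33 and -0.34, and FDFT1, squalene synthase, was the third rise at 0.17. The FDFT1 call ended with median ratio scaling (log2 difference 0.10, limma adjusted p = 0.156), quantile normalization, no filter or only the libraries compared (limma adjusted p = 0.0903, 0.0622 and 0.0526). It also ended without either solvent library or the first cisplatin library (limma adjusted p = 0.0837, 0.0763 and 0.24), and the SC5D call ended without the first cisplatin library (limma adjusted p = 0.0661).

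**Figure D2:**
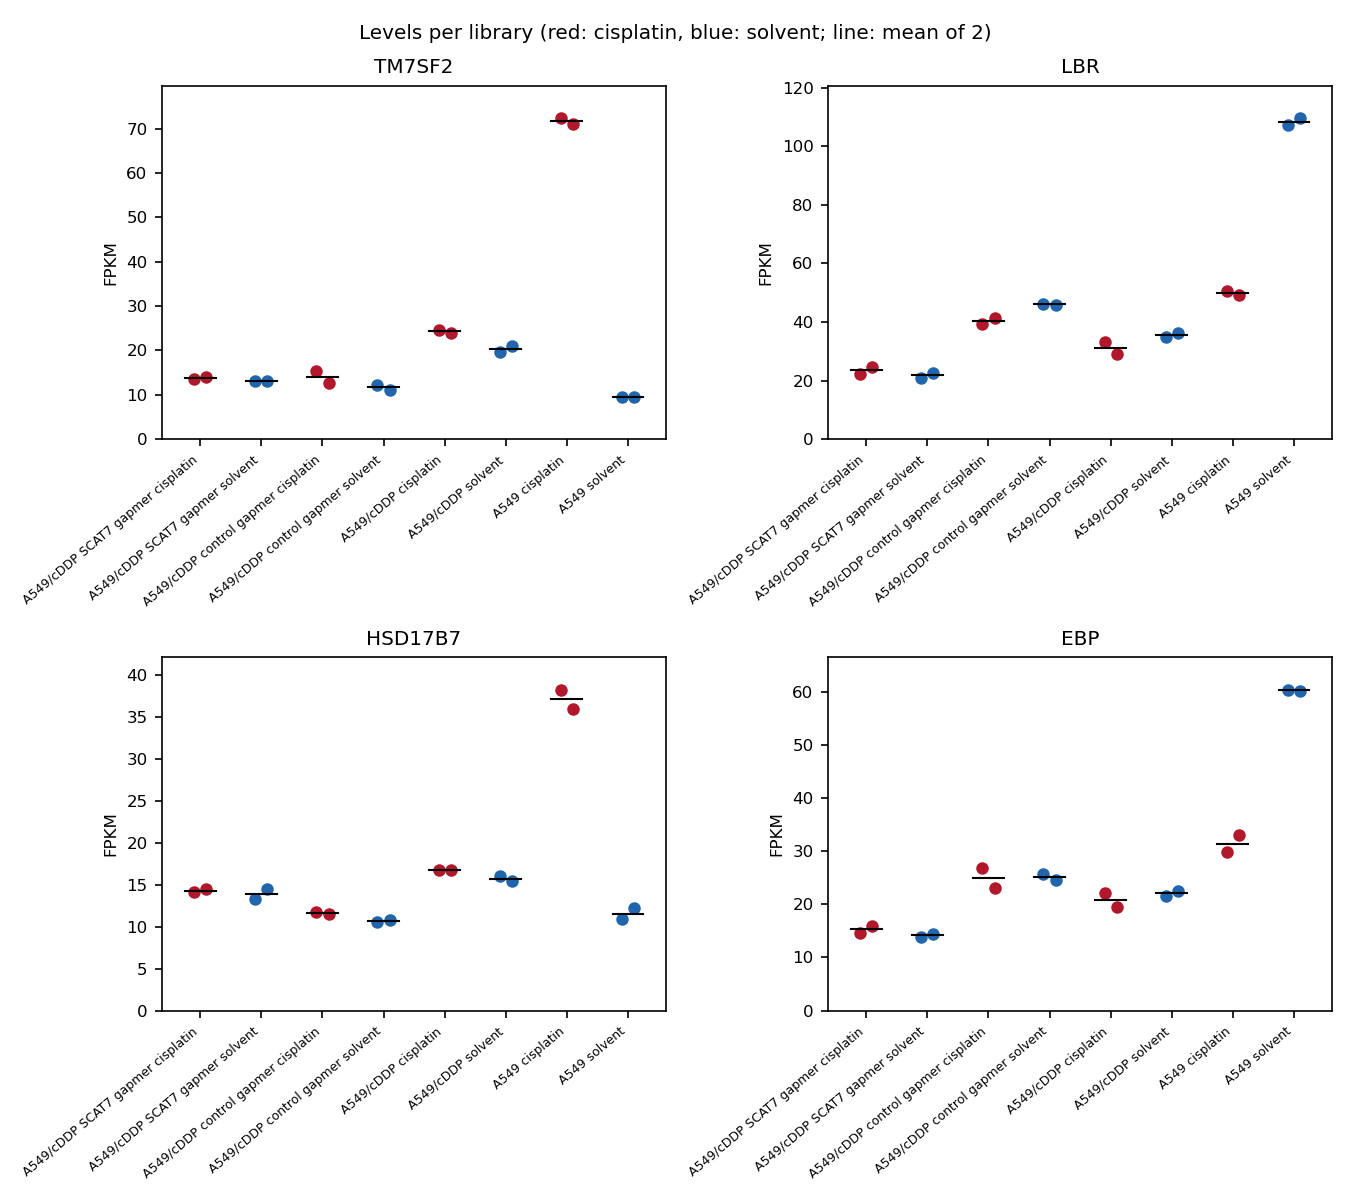
FPKM of TM7SF2, LBR, HSD17B7 and EBP in each library (points, 2 per group; the line is the mean of 2), in the 8 groups. In A549, cisplatin libraries lie far above solvent libraries for TM7SF2 and HSD17B7 and far below them for LBR and EBP, while the cisplatin and solvent groups of A549/cDDP lie close together.

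In the fatty acid arm of A549, 6 of 7 genes fell and none rose. SCD, the desaturase that makes oleic acid, had 25.4 and 23.9 FPKM in cisplatin, against 60.8 and 59.4 FPKM in solvent (log2 difference -1.27, SE 0.06, limma adjusted p = 3.26e-09). ELOVL6, which lengthens palmitic acid, had 11 and 12.5 FPKM, against 24.7 and 25.8 FPKM in solvent (log2 difference -1.07, limma adjusted p = 2.26e-08). As ratios of mean FPKM, the cisplatin level of SCD was 0.41 and that of ELOVL6 0.467 of the solvent level. FASN, fatty acid synthase, was lower by less, at 163 and 155 FPKM, against 194 and 200 FPKM in solvent (log2 difference -0.31, limma adjusted p = 0.00112). ACLY, ACACA and FADS2 fell with log2 differences of -0.39, -0.47 and -0.45, and FADS1 did not pass at -0.07 (limma adjusted p = 0.135), but did with median ratio scaling (-0.14, limma adjusted p = 0.0194) and with only the libraries compared (limma adjusted p = 0.0444).

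The regulators did not move together. INSIG1, itself a target of SREBPs, had 7.8 and 7.03 FPKM in the cisplatin libraries of A549, against 14.7 and 14.8 FPKM in solvent (log2 difference -0.95, SE 0.07, limma adjusted p = 1.48e-07). SREBF1 had 59.7 and 54.2 FPKM, against 105 and 101 FPKM in solvent (log2 difference -0.86, limma adjusted p = 5.04e-08). SREBF2 had 25.4 and 24.4 FPKM, against 28.1 and 26.4 FPKM (log2 difference -0.12, limma adjusted p = 0.145), which did not pass, but it did with median ratio scaling (-0.19, limma adjusted p = 0.0377). SCAP, the escort protein, was slightly higher at 41.1 and 37.3 FPKM, against 34.1 and 34 FPKM in solvent (log2 difference 0.20, limma adjusted p = 0.00826); the call ended with median ratio scaling (limma adjusted p = 0.0585) and without the first cisplatin library (limma adjusted p = 0.103). STARD4, a carrier that moves sterols between membranes, rose to 10.4 and 10.8 FPKM, against 8.01 and 7.8 FPKM in solvent (log2 difference 0.40, limma adjusted p = 0.00145).

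In the mevalonate arm of A549, 2 of 7 genes rose and 2 fell. With median ratio scaling 1 rose and 4 fell, and with quantile normalization 2 rose and 3 fell. MVD, at -0.13 in the main fit, was called lower with both (-0.20 and -0.17, limma adjusted p = 0.0126 and 0.0342). IDI1, at -0.08, was called lower with median ratio scaling (-0.15, limma adjusted p = 0.0414). HMGCS1, which makes the precursor of mevalonate, had 117 and 125 FPKM in cisplatin, against 122 and 121 FPKM in solvent, and its groups overlapped (log2 difference -0.01, 95% interval -0.10 to 0.08). MVK, the first kinase of the arm, fell to 5.06 and 5.88 FPKM, against 9.54 and 9.44 FPKM in solvent (log2 difference -0.75, limma adjusted p = 3.38e-06). PMVK, the next kinase, had 43.9 and 47.6 FPKM, against 41 and 37.9 FPKM in solvent (log2 difference 0.21, limma adjusted p = 0.0123), a call that ended with median ratio scaling (limma adjusted p = 0.0706) or without the second library of either group (limma adjusted p = 0.114 each). FDPS, farnesyl diphosphate synthase, fell by 0.38 on the log2 scale, and its 8 pseudogenes could take some of its reads. ACAT2, the thiolase that starts the pathway, had 37 and 38 FPKM, against 24.1 and 23.1 FPKM in solvent (log2 difference 0.66, limma adjusted p = 2.59e-05). Of its exon bases, 52.3% lie across from SOD2, SOD2-OT1 and TCP1 on the opposite strand; SOD2 averaged 140 ± 4.85 FPKM in cisplatin and 53.6 ± 0.799 FPKM in solvent, and TCP1 averaged 260 ± 2.1 FPKM in cisplatin and 339 ± 2.09 FPKM in solvent (SD, n = 2 each). In solvent, SOD2 averaged 177 ± 4.72 FPKM in A549/cDDP and 53.6 ± 0.799 FPKM in A549, where ACAT2 averaged 22.6 ± 1.06 FPKM in A549/cDDP and 23.6 ± 0.743 FPKM in A549 (SD, n = 2 each). No source states strand-aware counting, so reads in the shared bases could have been lost or assigned to any of these genes. Their part in the ACAT2 levels was not tested.

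In A549/cDDP, few genes of the set passed the test for the same exposure. Of the 31 genes, 1 was called higher and 2 lower, beside 3.55% and 4.55% of all genes (8.1% in either direction). At an unadjusted p under 0.05 the limma fit had 12 of the 31, and 3802 of the 17198 genes tested. ACACA, the carboxylase that makes malonyl-CoA, had 58 and 55.5 FPKM in cisplatin, against 72.5 and 73 FPKM in solvent (log2 difference -0.36, SE 0.03, limma adjusted p = 0.000177). ELOVL6 had 28.6 and 27 FPKM, against 33.6 and 35.1 FPKM in solvent (log2 difference -0.30, limma adjusted p = 0.0146), a call that ended without the first or the second solvent library or the second cisplatin library (limma adjusted p = 0.0546, 0.115 and 0.12). TM7SF2 had 24.6 and 24 FPKM, against 19.5 and 20.9 FPKM in solvent (log2 difference 0.26, limma adjusted p = 0.0444); leaving out any of the 4 libraries ended that call (limma adjusted p = 0.0975 to 0.241), as did 5 of the 9 other settings. Quantile normalization gave 0 higher and 2 lower. Among the genes named throughout, the log2 differences were 0.08 for HMGCS1, 0.08 for SQLE, -0.14 for FASN, -0.03 for SCD, -0.01 for SREBF1, 0.08 for SREBF2, 0.01 for SCAP and 0.17 for INSIG1, none past the test. The median of the 31 genes was 0.01, against 0.00 over all genes.

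**Figure D3:**
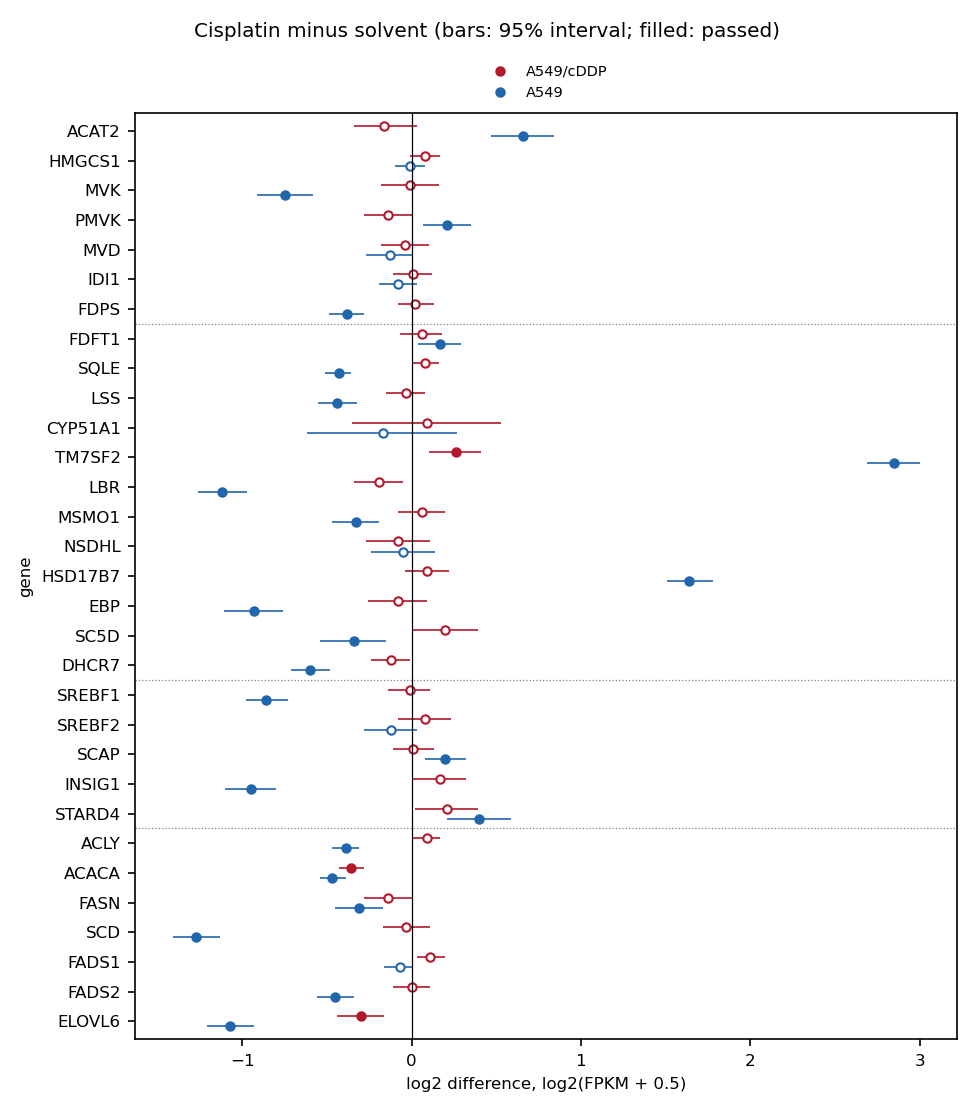
Log2 difference between cisplatin and solvent for each gene in A549/cDDP (red) and in A549 (blue), on log2(FPKM + 0.5), with 95% intervals; filled points passed the test. In A549 24 points are filled, reaching from -1.27 for SCD to 2.85 for TM7SF2, and in A549/cDDP 3 are filled.

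The cisplatin effects of both lines were tested against each other directly. The difference of effects, A549/cDDP minus A549, passed for 20 of the 31 genes, with 16 higher and 4 lower, beside 21.5% and 25.6% of all genes (47% in either direction). The median was 0.26 over the 31 genes, against -0.06 over all genes. It was largest for TM7SF2 at -2.59 (95% interval -2.81 to -2.37, limma adjusted p = 1.72e-09), followed by HSD17B7 at -1.56 (-1.74 to -1.37). On the other side stood SCD at 1.24, INSIG1 at 1.12 (0.90 to 1.34), LBR at 0.93, EBP at 0.85 and SREBF1 at 0.84. ACAT2 and PMVK had -0.81 and -0.35. SQLE passed at 0.52, whereas HMGCS1 at 0.08, FASN at 0.16, SREBF2 at 0.20 and SCAP at -0.19 did not. SREBF2 passed with median ratio scaling (0.27, limma adjusted p = 0.0481) and with only the libraries compared (limma adjusted p = 0.0439), and SCAP without the second A549 cisplatin library (-0.26, limma adjusted p = 0.0219). Beside this stood CDKN1A, a gene raised by DNA damage, which averaged 709 ± 1.64 FPKM in cisplatin and 577 ± 4.79 FPKM in solvent in A549/cDDP, and 1623 ± 17.7 FPKM in cisplatin and 84.2 ± 0.123 FPKM in solvent in A549 (SD, n = 2 each); its part in the result was not tested.

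The lines already differed in solvent. A549/cDDP had 18 of the 31 genes higher and 6 lower than A549, beside 42.7% and 27.5% of all genes (70.2% in either direction). The median of the 31 genes was 0.23, against 0.15 over all genes. With median ratio scaling, which brought that median of all genes to 0.02, 14 genes were higher and 8 lower. The shares of all genes with this scaling are not given. The largest rises were those of STARD4, MSMO1, LSS and MVD, and the largest falls those of LBR and EBP.

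Among the sterol genes in solvent, MSMO1, which removes methyl groups from the sterol ring, had 62.6 and 61.3 FPKM in A549/cDDP, against 23.1 and 23.6 FPKM in A549 (log2 difference 1.39, SE 0.07, limma adjusted p = 1.81e-09). LSS, which closes the sterol rings, had 41.5 and 39.7 FPKM, against 18.4 and 18 FPKM in A549 (log2 difference 1.13, limma adjusted p = 1.53e-09). SQLE, the epoxidase before it, had 120 and 114 FPKM, against 59.5 and 60.7 FPKM (log2 difference 0.95, limma adjusted p = 2.18e-10). All 3 stood well above A549 in both libraries. TM7SF2 had 19.5 and 20.9 FPKM, against 9.51 and 9.56 FPKM in A549 (log2 difference 1.04, limma adjusted p = 4.82e-08), while LBR had 34.8 and 36.1 FPKM, against 107 and 110 FPKM (log2 difference -1.60, limma adjusted p = 5.54e-10). The sum of these alternatives for 1 step was 54.4 and 56.9 FPKM in A549/cDDP, against 117 and 119 FPKM in A549. EBP had 21.6 and 22.5 FPKM, against 60.4 and 60.2 FPKM in A549 (log2 difference -1.43, limma adjusted p = 7.58e-09), and NSDHL, a dehydrogenase of the demethylation, was lower by a log2 difference of -0.65.

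Of the mevalonate genes in solvent, MVD, the decarboxylase, had 61.7 and 63.6 FPKM in A549/cDDP, against 28.6 and 30.6 FPKM in A549 (log2 difference 1.07, limma adjusted p = 1.51e-08). HMGCS1, further up the arm, had 72 and 74.3 FPKM, against 122 and 121 FPKM in A549 (log2 difference -0.73, limma adjusted p = 8.83e-09). PMVK was lower by a log2 difference of -0.61, FDPS was higher at 0.32, and ACAT2, MVK and IDI1, the isomerase, did not pass. Among the regulators, STARD4 had 26.4 and 26.3 FPKM, against 8.01 and 7.8 FPKM in A549 (log2 difference 1.68, limma adjusted p = 3.94e-09). INSIG1 was higher at a log2 difference of 0.52 and SREBF1 lower at -0.80, with 61.7 and 56.8 FPKM, against 105 and 101 FPKM. SREBF2 at 0.14 and SCAP at 0.00 did not pass; with median ratio scaling SCAP was called lower at -0.15 (limma adjusted p = 0.0291).

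The fatty acid arm in solvent was higher for 6 of 7 genes by small amounts. FADS1 had 468 and 462 FPKM in A549/cDDP, against 310 and 307 FPKM in A549 (log2 difference 0.59, limma adjusted p = 3.93e-08), and ELOVL6 was higher at 0.44. With median ratio scaling, ACLY, ACACA, SCD and FADS2 lost their calls (limma adjusted p = 0.595, 0.108, 0.69 and 0.279), which left FADS1 and ELOVL6; the SCD call also ended without the second A549 or the first A549/cDDP solvent library (limma adjusted p = 0.0839 and 0.0802). With quantile normalization all 7 were higher. FASN had 219 and 208 FPKM, against 194 and 200 FPKM in A549, and did not pass at a log2 difference of 0.12 (limma adjusted p = 0.116), but passed with quantile normalization (0.19, limma adjusted p = 0.0301) and with only the libraries compared (limma adjusted p = 0.0197). The summed epithelial markers, lower in A549/cDDP, and COL1A1, at 38.3 ± 2.39 FPKM in A549/cDDP and 9.6 ± 0.29 FPKM in A549 (SD, n = 2 each), moved with this comparison, and their part in it was not tested.

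With both lines in cisplatin, the gap between them covered nearly the whole set. In A549/cDDP, 20 of the 31 genes were higher and 9 lower than in A549, beside 37% and 29.5% of all genes (66.5% in either direction). The median was 0.44, against 0.08 over all genes. All 7 fatty acid genes were higher, also with median ratio scaling and with quantile normalization. MSMO1 had 68.6 and 60.7 FPKM in A549/cDDP, against 18.5 and 18.4 FPKM in A549 (log2 difference 1.78, SE 0.07, limma adjusted p = 2.56e-10). SQLE had 126 and 122 FPKM, against 43.9 and 44.9 FPKM (log2 difference 1.47, limma adjusted p = 7.92e-12). INSIG1 had 24.1 and 24.1 FPKM, against 7.8 and 7.03 FPKM (log2 difference 1.64, limma adjusted p = 9.93e-10). MSMO1, SQLE and INSIG1 were far above A549 in every library, but of the 12 genes of the sterol arm 6 were higher and 5 lower.

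SCD had 68.5 and 65.9 FPKM in A549/cDDP with cisplatin, against 25.4 and 23.9 FPKM in A549 with cisplatin (log2 difference 1.43, limma adjusted p = 1.18e-09). ELOVL6 was higher at 1.21, LSS at 1.54, STARD4 at 1.48, FASN at 0.28 and SREBF2 at 0.34. SREBF1 did not differ beyond the spread, with 58.7 and 58.5 FPKM, against 59.7 and 54.2 FPKM (log2 difference 0.04, 95% interval -0.08 to 0.17). HMGCS1 and SCAP were lower at -0.65 and -0.19; the SCAP call ended without the first A549 or the first A549/cDDP cisplatin library (limma adjusted p = 0.13 and 0.0655). TM7SF2 turned round, with 24.6 and 24 FPKM in A549/cDDP, against 72.4 and 71 FPKM in A549 (log2 difference -1.54, limma adjusted p = 1.72e-09). HSD17B7 did too, with 16.7 and 16.8 FPKM, against 38.3 and 35.9 FPKM (log2 difference -1.12, limma adjusted p = 6.77e-09). PMVK, ACAT2 and LBR were lower at -0.96, -0.88 and -0.68.

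Both comparisons between the lines called 16 genes higher, which is 88.9% of those higher in solvent and 80% of those higher in cisplatin, and 5 genes lower (HMGCS1, PMVK, LBR, NSDHL and EBP). TM7SF2 and HSD17B7 were the 2 genes called in opposite directions. These comparisons share no library. How often all genes tested were called alike in both was not counted, so this overlap is not shown to be particular to the set.

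**Figure D4:**
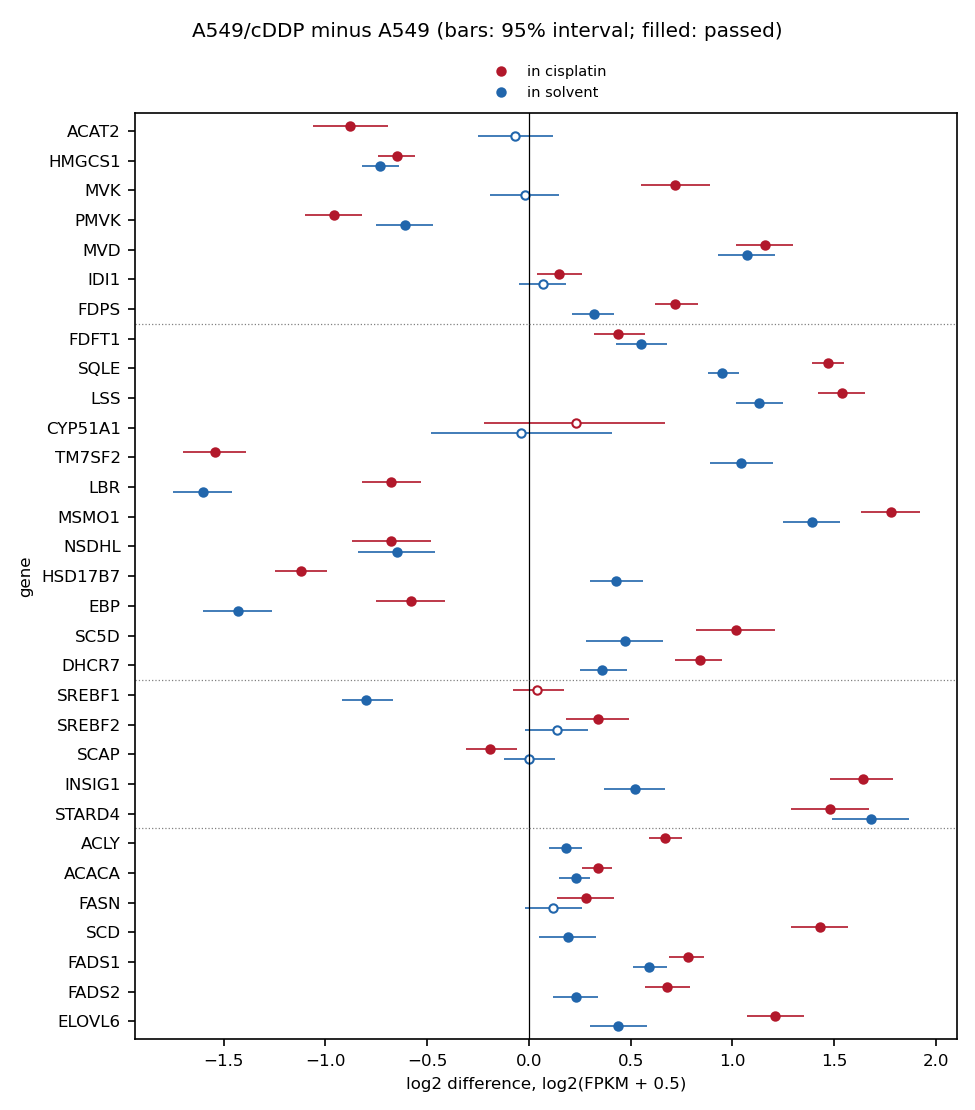
Log2 difference between A549/cDDP and A549 for each gene, in cisplatin (red) and in solvent (blue), on log2(FPKM + 0.5), with 95% intervals; filled points passed the test. MSMO1, LSS, SQLE, MVD and STARD4 lie to the right in both media, LBR and EBP to the left in both, and TM7SF2 and HSD17B7 change sides.

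Most of the set was lower in A549/cDDP with the control gapmer than without transfection. In solvent, 22 of the 31 genes were lower and 2 higher than in untransfected cells, beside 19% and 20.7% of all genes (39.7% in either direction). The median was -0.47, against -0.01 over all genes. In cisplatin, 22 were lower and 3 higher, beside 19.4% and 23% of all genes (42.4% in either direction), with a median of -0.61, against 0.02 over all genes. In both media 21 genes were lower, which is 95.5% of the lower calls of each, and LBR and SREBF1 were higher in both. The same overlap over all genes was not counted. The gapmer, the lipid reagent and other handling cannot be told apart here, and no A549 group was transfected. Of the 6 epithelial markers 4 were higher and 1 lower in solvent, with a sum of 6664 to 6964 FPKM with the control gapmer, against 5555 to 5707 FPKM without transfection. In cisplatin 5 were higher and 0 lower, at 6462 to 6485 FPKM, against 5276 to 5350 FPKM, and their part in the result was not tested.

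The largest fall in solvent was that of FADS2, which with FADS1 encodes the desaturases of polyunsaturated fatty acids. FADS2 had 111 and 105 FPKM with the control gapmer, against 226 and 221 FPKM without transfection (log2 difference -1.04, SE 0.05, limma adjusted p = 2.93e-08). FADS1 had 239 and 239 FPKM, against 468 and 462 FPKM (log2 difference -0.96, limma adjusted p = 8.32e-09). As ratios of mean FPKM, FADS2 was at 0.485 and FADS1 at 0.515 of the untransfected level. SCD, in the same arm, had 38.4 and 36.4 FPKM, against 69.2 and 67.8 FPKM (log2 difference -0.86, limma adjusted p = 6.63e-07), and FASN was lower at -0.47.

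Sterol genes moved by as much. MSMO1 had 31.8 and 30.9 FPKM with the control gapmer in solvent, against 62.6 and 61.3 FPKM without transfection (log2 difference -0.97, limma adjusted p = 3.7e-07). LSS had 21.1 and 20.1 FPKM, against 41.5 and 39.7 FPKM (log2 difference -0.96, limma adjusted p = 7.91e-08), and SQLE had 69.4 and 66.6 FPKM, against 120 and 114 FPKM (log2 difference -0.78, limma adjusted p = 1.85e-08). The groups did not overlap for any of the 3. In the mevalonate arm MVD was lower at -0.87 and HMGCS1 at -0.43. The regulator INSIG1 had 12.1 and 11.9 FPKM, against 22.3 and 20.5 FPKM (log2 difference -0.81, limma adjusted p = 2.96e-06), and SREBF2 was lower at -0.45. SCAP did not pass at 0.04. SREBF1 went up, with 78.3 and 76.6 FPKM, against 61.7 and 56.8 FPKM (log2 difference 0.38, limma adjusted p = 0.000196), as did LBR, with 46.2 and 45.8 FPKM, against 34.8 and 36.1 FPKM (log2 difference 0.37, limma adjusted p = 0.000809).

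In cisplatin the same transfection gave its largest fall for INSIG1, with 10.1 and 9.99 FPKM, against 24.1 and 24.1 FPKM without transfection (log2 difference -1.22, SE 0.07, limma adjusted p = 8.5e-08). By the size of its fall INSIG1 was rank 57 of 17198 genes. MSMO1, FADS2, FADS1 and SCD followed with log2 differences of -1.10, -1.07, -1.06 and -1.06. SQLE, SREBF2, HMGCS1 and FASN were lower at -0.88, -0.65, -0.55 and -0.38, and SCAP did not pass at 0.03. LBR, SREBF1 and EBP were higher at 0.38, 0.35 and 0.25. The EBP call ended with median ratio scaling, no filter, quantile normalization or only the libraries compared (limma adjusted p = 0.0527, 0.0674, 0.0726 and 0.0801) and without the second untransfected or the first transfected library (limma adjusted p = 0.194 and 0.236).

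With the SCAT7 gapmer, set against the control gapmer, MSMO1, STARD4 and INSIG1 were among the genes that were higher, and LBR and EBP were lower. In solvent 12 genes were higher and 7 lower, beside 33.2% and 22.7% of all genes (55.8% in either direction). In cisplatin 14 were higher and 6 lower, beside 28.6% and 21.1% of all genes (49.7% in either direction). The medians were 0.10 in solvent and 0.12 in cisplatin, against 0.06 and 0.04 over all genes, so in solvent the split of calls was close to that of the whole table. In both media 12 genes were higher, which is 100% of the higher calls in solvent and 85.7% of those in cisplatin. Among them were ACAT2 and IDI1, which share 52.3% and 14.8% of their exon bases with genes on the opposite strand. Across from ACAT2, SOD2 averaged 460 FPKM with the SCAT7 gapmer and 194 FPKM with the control gapmer in solvent, and TCP1 163 and 236 FPKM. Across from IDI1, IDI2-AS1 averaged 10.9 and 1.29 FPKM. Their part in the ACAT2 and IDI1 calls was not tested. The genes lower in both were LBR, EBP, SREBF1, SCAP and ACLY. None of the 31 was called in opposite directions, and the same overlap over all genes was not counted. The ACLY calls ended with quantile normalization (limma adjusted p = 0.121 in solvent and 0.299 in cisplatin), and in cisplatin also with an untrended prior (0.0599), with only the libraries compared (0.161) or without the first library of either group (0.188 without the control gapmer library and 0.18 without the SCAT7 gapmer library). In the fatty acid arm the split turned with scaling: in solvent 1 was higher and 1 lower, against 1 higher and 3 lower once scaled by median ratios and 2 higher and 0 lower after quantile normalization, and in cisplatin 1 was higher and 2 lower, against 3 and 0 with quantile normalization. These libraries also differed in depth, as given above. Of the 6 epithelial markers 1 was higher and 5 were lower with the SCAT7 gapmer in each medium, with sums of 5238 to 5325 FPKM, against 6664 to 6964 FPKM with the control gapmer, in solvent, and of 5200 to 5441 FPKM, against 6462 to 6485 FPKM, in cisplatin. The part of depth and of these markers in the result was not tested.

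Among the genes that rose, MSMO1 had 46.5 and 50 FPKM with the SCAT7 gapmer in solvent, against 31.8 and 30.9 FPKM with the control gapmer (log2 difference 0.61, SE 0.07, limma adjusted p = 7.18e-06). STARD4 had 43 and 34.9 FPKM, against 24.1 and 26.6 FPKM (log2 difference 0.61, limma adjusted p = 7.76e-05). INSIG1 had 17.1 and 17.8 FPKM, against 12.1 and 11.9 FPKM (log2 difference 0.52, limma adjusted p = 5.08e-05). LSS and MVD were higher at 0.44 and 0.43, SQLE at 0.31, SCD at 0.23 and HMGCS1 at 0.19. The SCD call ended without the second library of either group (limma adjusted p = 0.0587 without the control gapmer library and 0.0744 without the SCAT7 gapmer library).

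LBR fell the most, to 20.8 and 22.6 FPKM with the SCAT7 gapmer in solvent, against 46.2 and 45.8 FPKM with the control gapmer (log2 difference -1.07, limma adjusted p = 6.9e-08). EBP had 13.8 and 14.5 FPKM, against 25.6 and 24.7 FPKM (log2 difference -0.81, limma adjusted p = 3.51e-06). TM7SF2, the alternative to LBR, had 13.2 and 13.1 FPKM, against 12.1 and 11.1 FPKM, and did not pass at 0.17 (limma adjusted p = 0.0584). Their sum was 34 and 35.8 FPKM with the SCAT7 gapmer, against 58.4 and 56.9 FPKM with the control gapmer. SCAP was lower at -0.27, PMVK at -0.23 and ACLY at -0.19. The PMVK call ended without the first library of either group (limma adjusted p = 0.1 without the control gapmer library and 0.0777 without the SCAT7 gapmer library). SREBF1 passed narrowly at -0.15 (limma adjusted p = 0.0405; 0.0819 to 0.158 when any 1 of the 4 libraries was left out, and 0.0524 to 0.0855 in 3 of the 9 other settings). SREBF2 at 0.10 and FASN at -0.14 did not pass.

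In cisplatin, INSIG1 had 15.4 and 18 FPKM with the SCAT7 gapmer, against 10.1 and 9.99 FPKM with the control gapmer (log2 difference 0.70, SE 0.07, limma adjusted p = 7.03e-06). STARD4, MSMO1, LSS and SC5D, a sterol desaturase, were higher at 0.63, 0.53, 0.48 and 0.35, and SQLE, SCD and HMGCS1 at 0.35, 0.34 and 0.30. LBR had 22.2 and 24.8 FPKM, against 39.3 and 41.5 FPKM (log2 difference -0.77, limma adjusted p = 1.83e-06), and EBP had 14.6 and 16 FPKM, against 26.8 and 23 FPKM (log2 difference -0.68, limma adjusted p = 2.08e-05). SCAP was lower at -0.34. FASN and SREBF1 passed at -0.18 and -0.17 (limma adjusted p = 0.036 and 0.0287), but each call ended when either control gapmer library or the first SCAT7 gapmer library was left out (limma adjusted p = 0.105 to 0.339 for FASN and 0.0589 to 0.248 for SREBF1). They also ended in 4 of the 9 other settings for FASN (limma adjusted p = 0.0656 to 0.121) and in 3 for SREBF1 (0.0543 to 0.1). SREBF2 did not pass at 0.09.

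**Figure D5:**
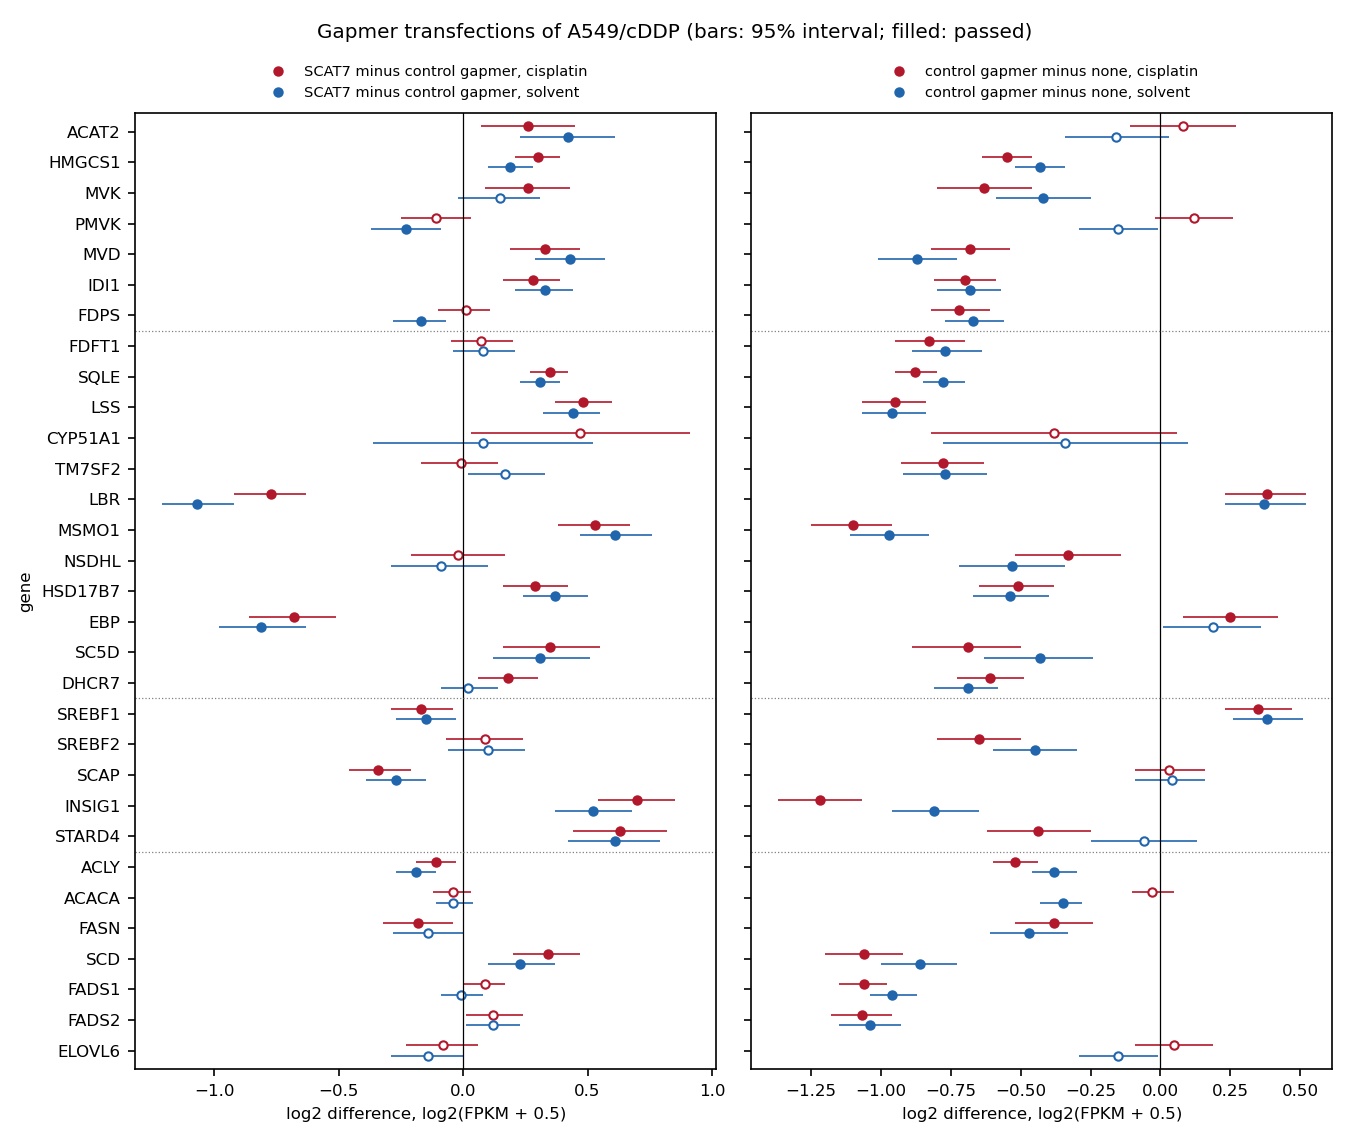
Log2 differences in A549/cDDP for each gene, SCAT7 gapmer minus control gapmer (left) and control gapmer minus no transfection (right), in cisplatin (red) and in solvent (blue), on log2(FPKM + 0.5), with 95% intervals; filled points passed the test. On the right most genes lie below 0 with LBR and SREBF1 above it, and on the left LBR and EBP lie lowest while INSIG1, STARD4 and MSMO1 lie highest.

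Both gapmer comparisons use the control gapmer libraries, so they are only set side by side. INSIG1 in solvent had a log2 difference of 0.52 for SCAT7 gapmer against control gapmer and of -0.81 for control gapmer against no transfection. For MSMO1 the values were 0.61 and -0.97, for LBR -1.07 and 0.37, and for FADS1 -0.01 and -0.96. In levels, INSIG1 had 17.1 and 17.8 FPKM with the SCAT7 gapmer, 12.1 and 11.9 FPKM with the control gapmer and 22.3 and 20.5 FPKM without transfection.

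In transfected A549/cDDP, few or none of the set passed the test for cisplatin. With the SCAT7 gapmer, 1 of the 31 genes was called higher and 0 lower, beside 2.92% and 1.26% of all genes (4.18% in either direction); it was PMVK, with 24.8 and 22.2 FPKM in cisplatin, against 19 and 20.1 FPKM in solvent (log2 difference 0.26, limma adjusted p = 0.0481). That call ended in 6 of the 9 other settings and without either solvent library or the first cisplatin library (limma adjusted p = 0.243, 0.0685 and 0.193). With the control gapmer, limma called 0 of the 31, beside 1.67% of all genes higher and 0.855% lower (2.53% in either direction). At an unadjusted p under 0.05 the limma fit had 6 of the 31, and 2400 of the 17198 genes tested. Log2 differences of the 31 genes ran between -0.24 and 0.25. The difference of the cisplatin effects, SCAT7 gapmer minus control gapmer, was called by limma for 0 of the 31. Beside this stood 0.488% and 0.442% of all genes (0.93% in either direction). At an unadjusted p under 0.05 the fit had 2 of the 31, and 2350 of the 17198 genes tested. For INSIG1 the difference of effects was 0.17 (95% interval -0.04 to 0.39) and for LBR 0.30 (0.09 to 0.50, limma adjusted p = 0.182).

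Genes around the set, taken from 5 lists of related functions, gave a mixed picture. In A549 with cisplatin, of 13 genes of SREBP processing 5 were higher and 3 lower than in solvent, beside 33.3% and 27.1% of all genes, the shares against which all 5 lists stand in A549 with cisplatin. ERLIN1, a membrane protein that binds the SREBP complex, had 13.5 and 13.6 FPKM in cisplatin, against 42.8 and 41.9 FPKM in solvent (log2 difference -1.61, limma adjusted p = 5.84e-10), and MBTPS1, the protease of the first SREBP cut, rose at 0.44. Of 21 tested genes of sterol uptake, transport, esterification and efflux, 7 were higher and 4 lower. ABCA1, which exports cholesterol, had 24.6 and 24.5 FPKM, against 3.82 and 3.99 FPKM (log2 difference 2.51, limma adjusted p = 2.69e-13), and MYLIP rose at 0.60. TMEM97, a membrane protein tied to sterol handling, had 38.5 and 36.4 FPKM, against 78 and 77.6 FPKM (log2 difference -1.05, limma adjusted p = 1.55e-06).

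The other lists in A549 with cisplatin held 11 higher and 9 lower of 26 genes of other fatty acid and glycerolipid synthesis, 3 higher and 8 lower of 13 genes of the non-sterol isoprenoid branch, and 9 higher and 5 lower of 21 genes of fatty acid oxidation, again beside 33.3% and 27.1% of all genes. FADS3 and SCD5, relatives of desaturases that fell, rose at 1.48 and 0.99. FADS3 had 71.6 and 64.7 FPKM in cisplatin, against 23.5 and 24.8 FPKM in solvent. ICMT, which methylates prenylated proteins, fell to 32.1 and 30.5 FPKM, against 67.9 and 67.2 FPKM (log2 difference -1.10).

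Between the lines in cisplatin, NPC1, which moves cholesterol out of lysosomes, had 106 and 107 FPKM in A549/cDDP, against 33.8 and 34.9 FPKM in A549 (log2 difference 1.62, limma adjusted p = 4.89e-12). LPIN1, a phosphatidate phosphatase of glycerolipid synthesis, was higher at 1.35 and MLXIPL, a carbohydrate-responsive regulator of lipid genes, lower at -2.20. The list of NPC1 had 11 higher and 8 lower of 21, and that of LPIN1 and MLXIPL 10 higher and 8 lower of 26. Of all genes 37% were higher and 29.5% lower. With the SCAT7 gapmer in cisplatin, SOAT2, which esterifies cholesterol, had 4.28 and 4.77 FPKM, against 0.512 and 0.659 FPKM with the control gapmer (log2 difference 2.21, limma adjusted p = 2.05e-07). ABCA1 was higher at 1.39 and TMEM97 lower at -1.25 there. The list of these genes had 7 higher and 5 lower of 21, beside 28.6% and 21.1% of all genes. With the control gapmer in solvent, ABCA1 had 25.2 and 25.7 FPKM, against 42.5 and 42.7 FPKM without transfection (log2 difference -0.73, limma adjusted p = 5.63e-08), LPIN1 was lower at -0.93, and TMEM97 was higher at 0.53. In that comparison 6 of the 13 non-sterol isoprenoid genes were higher and 0 lower, beside 20.7% and 19% of all genes. The other lists were more mixed. SREBP processing had 4 higher and 6 lower of 13, and sterol uptake, transport, esterification and efflux 6 higher and 5 lower of 21. Other fatty acid and glycerolipid synthesis had 6 higher and 11 lower of 26, and fatty acid oxidation 3 higher and 7 lower of 21.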

How the data were processed

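RNA was taken from A549 and A549/cDDP cells in 16 libraries, 8 groups of 2, after oligo(dT) enrichment as the labels' protocols state. Per the submitters' processing notes, TopHat2 served for alignment to hg38 and HTSeq 0.6.1 for counting. Neither the annotation release nor whether counting used strand is given in the sources used here. The deposited values are FPKM, 1 column per library, and all columns were used. No per-gene counts were used, and no scaling beyond the library total is stated. FPKM is relative to the library total, so a few abundant genes can shift all others.

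From these values, log2(FPKM + 0.5) was fitted with limma 3.58.1 (R 4.3.3) with a mean per group over all 16 libraries, a trended prior and 8 residual degrees of freedom. The fit covered the 17198 genes averaging 0.5 FPKM or more. Tests were two-sided, with Benjamini-Hochberg adjustment over all genes tested in each of 12 comparisons and a threshold of 0.05. A log2 difference on this scale understates the change of low genes, whereas fold changes are ratios of mean FPKM. The fit was tested on simulated data. Low values came out as whole reads for only 63.5% to 68.9% of cases (within 0.02 reads), so no count test was run. Duplicate libraries were looked for, and the r of log2 values within a group was 0.991 to 0.996.

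The 31 genes, the lists and the comparisons were chosen with earlier results of these data known. Named throughout are SREBF1, SREBF2, SCAP, INSIG1, HMGCS1, SQLE, FASN and SCD, and beside them up to 5 called genes each way by size of change, with non-overlapping libraries and at least 5 FPKM in the higher group. From the related lists, names come from the 3 largest called changes each way in a comparison. Every gene called in a comparison of 2 groups had non-overlapping libraries. Positions and gene overlaps came from GENCODE 29 (GRCh38), which has a model for 56868 identifiers. The alternatives were 9 other settings (pseudocount, filter, scaling, prior, replicate block and the libraries in the fit) and leaving out each library.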

Additional observations from a re-analysis of the deposited data

Results flagged for a closer look

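The cisplatin effect differed between the lines for 20 of the 31 genes by a test of the difference itself, A549/cDDP minus A549, on the log2 scale (limma adjusted p under 0.05), beside 47% of all genes tested. In the sterol arm it was -2.59 for TM7SF2, -1.56 for HSD17B7, 0.93 for LBR, 0.85 for EBP, 0.55 for SC5D, 0.52 for SQLE, 0.48 for DHCR7, 0.40 for LSS and 0.39 for MSMO1. In the mevalonate arm it was -0.81 for ACAT2, 0.74 for MVK, 0.41 for FDPS and -0.35 for PMVK. Among the regulators it was 1.12 for INSIG1 and 0.84 for SREBF1. In the fatty acid arm it was 1.24 for SCD, 0.77 for ELOVL6, 0.49 for ACLY, 0.45 for FADS2 and 0.18 for FADS1.

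The FADS1 difference was the least firm of these by adjusted p, at 0.0157 with limma, and it no longer passed without the first A549 solvent library (limma adjusted p = 0.0517) or the second A549/cDDP solvent library (limma adjusted p = 0.0525). FADS1 and FADS2 also lie across from each other on opposite strands, and the counting is not stated to use strand.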

How the results depend on the processing

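Across 9 other settings and the left-out libraries, 155 single-gene results were followed, not those of every gene in the set. They were those of the genes named throughout and of up to 5 called genes each way by size of change. Of 2103 cases, 2032 stayed on their side of the threshold, 62 lost the call and 8 gained one. Picking called genes by size of change favours calls that hold, so this share does not describe the whole set. Direction was compared only where the main or the other fit made a call, so genes called in neither could change sign unseen. The 1 remaining case was SCAP between the lines in solvent, at 0.00 and not called in the main fit. With median ratio scaling it was called at -0.15. PMVK with the SCAT7 gapmer, the 1 call of its comparison, went to 0 with a pseudocount of 0.1, no filter, median ratio scaling, an untrended prior, the replicate block or only the libraries compared; the cause was not tested. With quantile normalization 0 genes rose and 2 fell with cisplatin in A549/cDDP. Leaving out 1 library gave counts of 21 to 23 for cisplatin in A549, 1 to 3 in A549/cDDP (fewest without the first solvent library), 19 to 21 for the difference of these effects, 23 to 24 and 27 to 29 between the lines in solvent and cisplatin, 0 to 1 for cisplatin with the control gapmer, 0 to 3 with the SCAT7 gapmer, 16 to 17 and 15 to 20 for SCAT7 against control gapmer in solvent and cisplatin, and 24 to 24 and 23 to 25 for control gapmer against no transfection. In A549/cDDP the lowest count was reached equally without the second solvent library or the second cisplatin library. When 1 library is left out, the lone library left in its group is assumed to vary like the other groups. The replicate numbers do not pair the libraries by the labels, and deviations of same-numbered libraries correlated at -0.073 to 0.113. With the replicate block the counts were 24 for cisplatin in A549, 2 in A549/cDDP, 20 for the difference, 24 and 29 between the lines, 19 and 20 for SCAT7 against control gapmer, and 24 and 25 for the transfection. With 2 libraries a group, small differences may not have been detectable.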
